A study of Bos taurus with 24 samples.

Results

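This account follows the genes that make fatty acids and triglycerides through liver and mammary biopsies of Holstein dairy cows in late gestation. The list held 5 genes named by their Ensembl identifiers: FASN (ENSBTAG00000015980), ACACA (ENSBTAG00000017567), SCD (ENSBTAG00000045728), DGAT1 (ENSBTAG00000026356) and LPL (ENSBTAG00000012855). The members were fixed by these identifiers and not by a cut on any measured value, but earlier results of these data were known when they were chosen. Of the 5, 4 had a row among the 27607 gene identifiers of each raw count table, and all 4 passed the filter on low counts in every comparison. SCD, the desaturase that turns stearate into oleate, is not analysed here.

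Milk fat and liver fat are both triglycerides, and the cell obtains the fatty acids for them in a pair of ways. It can build them: acetyl-CoA carboxylase (ACACA) makes malonyl-CoA, the committed step, and fatty acid synthase (FASN) elongates the chain to palmitate and, in the mammary gland, to shorter milk fatty acids. It can also import them: lipoprotein lipase (LPL), on the capillary wall, frees fatty acids from circulating triglyceride, and diacylglycerol acyltransferase 1 (DGAT1) joins the last acyl chain whichever way it came. In ruminants the liver makes little new fatty acid, adipose tissue and the lactating mammary gland make most, and the adipocytes of the mammary fat pad express these genes too.

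The data set held 24 RNA-seq libraries from multiparous cows in the non-lactating dry period, 12 of liver and 12 of mammary gland, and each tissue had 6 libraries of control cows and 6 of phase shift cows. All cows had stopped being milked 60 d before expected calving, entered the experimental barn 35 d before it and received light (150 lx) for 16 h and darkness for 8 h a day until biopsy at 21 d before it. Control cows kept 1 fixed light phase. For phase shift cows the light phase moved by 6 h every 3 d for 2 weeks, with at least 5 shifts before biopsy. Each treatment had its own partition of the barn, so an effect of partition and one of treatment cannot be told apart. The sources used here do not give the hour of biopsy. The libraries carried 13 cow labels, 6 control and 7 phase shift; 11 cows, 6 control and 5 phase shift, gave both tissues. The series description gives 6 phase shift cows, so 1 label may be wrong: phase shift cow 25 has liver only and phase shift cow 21 has mammary only, and whether they are 1 cow cannot be told from the labels. Neither entered the paired comparison. Replicates within a tissue were separate cows.

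Liver libraries held 7.68 to 26.9 M counts (mega counts), mammary libraries 5.05 to 13.1 M. The lowest member count in any library was 33, for LPL in liver. In 3 libraries the whole transcriptome stood apart from its tissue. Over the 13752 liver genes tested, log2 levels in the library of phase shift cow 22 had a median correlation of 0.915 with the other liver libraries, against 0.964 to 0.972 for the other 11. Over 15547 mammary genes, the value was 0.845 for control cow 26 and 0.884 for phase shift cow 21, against 0.935 to 0.959 for the other 10. Where leaving them out moved a result, the value without them stands beside it. The tissue labels were not checked against cell markers, because marker symbols could not be paired with the Ensembl identifiers. In bulk biopsies, fewer cells of a type and less RNA per cell cannot be told apart.

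FASN was the member that separated the tissues most. Levels are given as CPM, counts relative to library size, after trimmed-mean (TMM) scaling over all 24 libraries. In liver FASN ran from 42.9 CPM in control cow 21 through a median of 122.2 to 272.8 CPM in phase shift cow 26. In mammary it ran from 733.5 CPM in control cow 23 through a median of 3440 to 26100 CPM in control cow 26. The ranges did not overlap: each of the 12 mammary libraries lay above every liver library, a pattern met by 12.9% of the 16818 genes tested. Over the 11 cows with both tissues, mammary was higher in 11 of 11, as it was for 22.5% of genes, by 5.07-fold in control cow 23, 30.7-fold at the median and 236-fold in control cow 26. As a share of all counts in a library, FASN held 0.00312% to 0.0179% in liver and 0.114% to 2.44% in mammary.

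**Figure D1:**
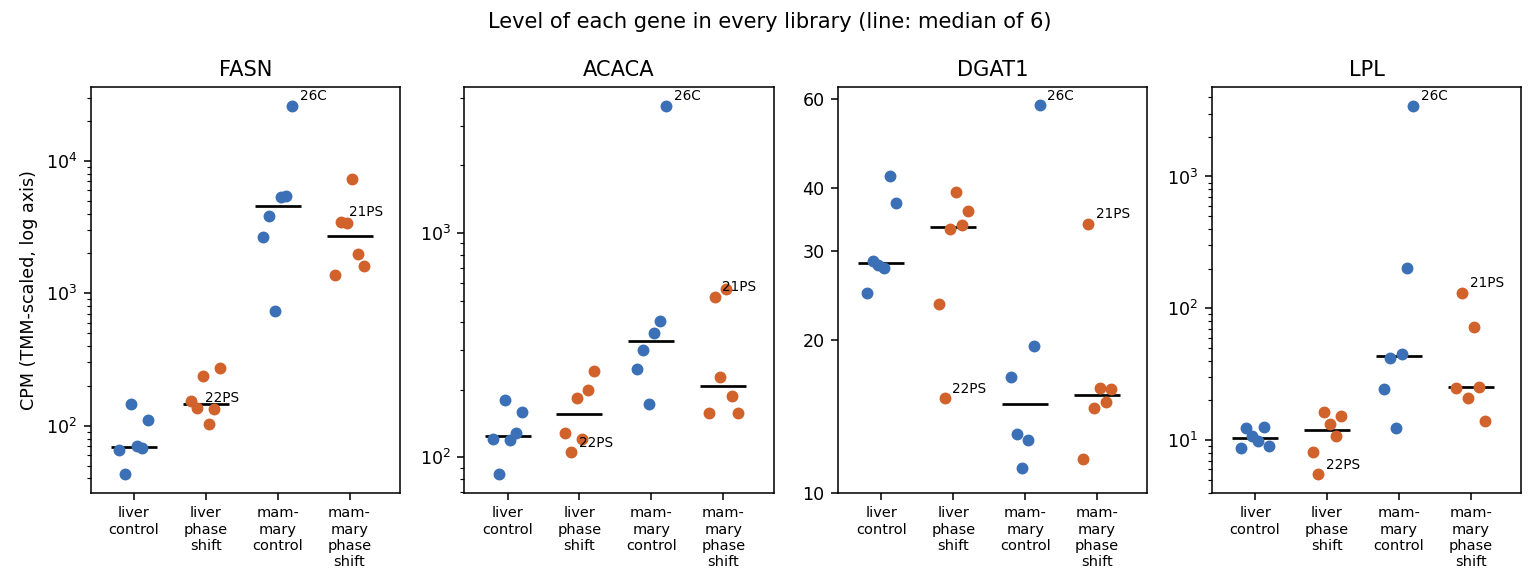
Level of FASN, ACACA, DGAT1 and LPL in every library, as TMM-scaled CPM on a log axis, by tissue and treatment. Each point is 1 cow, each line the median of 6, and the libraries that stand apart carry their cow label (26C, control cow 26; 21PS and 22PS, phase shift cows 21 and 22). FASN in mammary lies above FASN in liver in every library, and 26C holds the highest mammary value of each gene.

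The paired comparison of tissues, fitted by edgeR with the cow as a block, called 4 of 4 members at a Benjamini-Hochberg adjusted p under 0.05. The background was high: the same test called 12012 of 16818 genes, or 71.4%, with 36.7% higher and 34.7% lower in mammary, so a call by itself sets a member little apart from other genes. FASN was higher in mammary by 4.88 on the log2 scale (SE 0.47, 95% interval 3.87 to 5.89, edgeR adjusted p = 5.66e-07), and by 4.69 without control cow 26. Without phase shift cow 22 as well, all 4 members were still called, with FASN at 4.59, LPL at 1.54, ACACA at 0.83 and, on the TMM scale, DGAT1 at -1.12. The median log2 difference was 1.53 over the 4 members and 0.057 over all genes tested.

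ACACA, which supplies the malonyl-CoA that FASN consumes, differed less between the tissues. Its liver level ran from 84.1 CPM through a median of 128.4 to 243.0 CPM, and its mammary level from 157.4 through 274.2 to 3688 CPM. The ranges overlapped, with 7 of 12 mammary libraries above every liver library. Mammary was higher in 9 of 11 cows, the median cow by 2.17-fold. Control cow 23 and phase shift cow 26 went the other way, at 0.959-fold and 0.648-fold, on the TMM scale. By share of library counts ACACA was higher in mammary in 11 of 11. Under scaling by library totals, however, the median gene also lay 1.11 higher in mammary (log2). How many genes were higher in 11 of 11 by share, or matched the 7 of 12 libraries and 9 of 11 cows, was not counted. The paired difference was 1.12 (log2, SE 0.33, edgeR adjusted p = 0.00829), and 0.90 without control cow 26.

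LPL, the route for imported fatty acids, gave the fewest liver counts of the 4 members, with no allowance for gene length. It was at 5.51 CPM in phase shift cow 22, 10.8 CPM at the median and 16.4 CPM in phase shift cow 23. In mammary it ran from 12.3 CPM in control cow 23 through a median of 33.7 to 3441 CPM in control cow 26. Here 10 of 12 mammary libraries lay above every liver library, and 10 of 11 cows had more in mammary. By share of library counts LPL was higher in mammary in 11 of 11, but under library totals the median gene was also higher in mammary. How many genes match these counts of libraries and cows was not counted. The fold in a cow ran from 0.927 in phase shift cow 26 through 3.40 to 378 in control cow 26, and the next highest cow, control cow 25, was at 16.0. The paired difference was 1.94 (log2, SE 0.57, edgeR adjusted p = 0.00773), and 1.61 without control cow 26. Without the cow block, over all 24 libraries, it was 3.97.

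DGAT1, the acyltransferase of the last step, was the only one of the 4 that was lower in mammary on the TMM scale, and that direction turned over when libraries were scaled by their totals alone. In liver it ran from 15.4 CPM in phase shift cow 22 through a median of 30.9 to 42.3 CPM in control cow 25. In mammary the median was 15.6 CPM, between 11.2 CPM in control cow 23 and 58.2 CPM in control cow 26. Of the 12 mammary libraries, 6 lay below every liver library and 1, control cow 26, lay above all of them. On the TMM scale mammary was lower in 10 of 11 cows, with control cow 26 at 1.56-fold as the exception, and the paired difference was -0.89 (log2, SE 0.17, edgeR adjusted p = 0.000429), or -1.02 without control cow 26. By share of library counts DGAT1 was higher in mammary in 5 of 11 cows, and scaling by library totals gave 0.17 (edgeR adjusted p = 0.308). The share of all genes that match these counts of libraries and cows was not taken.

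The 2 scalings differ by the libraries' TMM factors, which allow for the share of counts held by a few abundant genes and were 0.658 to 0.730 in liver and 0.937 to 1.62 in mammary. Under library totals the median gene lay 1.11 higher in mammary on the log2 scale, against 0.057 under TMM. The calls then split into 12345 higher and 2511 lower, against 6172 and 5840. Relative to that median the members kept their order under totals, with FASN at 5.94, LPL at 3.03, ACACA at 2.19 and DGAT1 at 0.17, below the median gene.

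**Figure D2:**
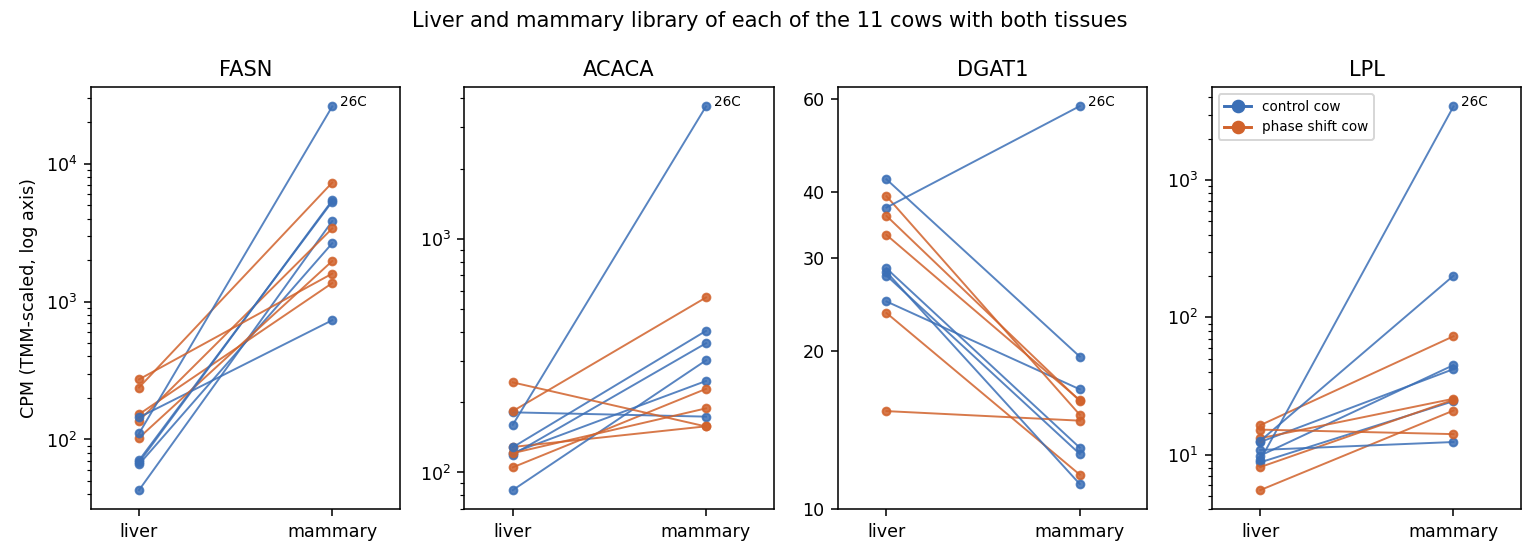
Liver and mammary level of each gene in the 11 cows with both tissues, as TMM-scaled CPM on a log axis, with 1 line per cow, coloured by treatment. FASN lines rise in 11 of 11 cows, LPL in 10 and ACACA in 9, while DGAT1 lines fall in 10 of 11 on this scale; by share of library counts DGAT1 is higher in mammary in 5 of 11.

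The tissue difference was also taken within each treatment from the same fit. In control cows 4 of 4 members were called (60.5% of all genes were), with FASN at 5.88, ACACA at 1.66, LPL at 2.62 and DGAT1 at -0.80 on the log2 scale. Without control cow 26 these were 5.48, 1.21, 1.94 and -1.06, and 4 of 4 were called. Without the cow block, over 24 libraries, 3 of 4 were called in control cows, DGAT1 at -0.52 (edgeR adjusted p = 0.200) being the one lost. In phase shift cows 2 of 4 were called (61.3% of all genes): FASN at 3.89 (SE 0.64, edgeR adjusted p = 0.000158) and DGAT1 at -0.98 (SE 0.26, adjusted p = 0.00471). ACACA was at 0.58 (SE 0.48, adjusted p = 0.312) and LPL at 1.27 (SE 0.79, adjusted p = 0.183). Without control cow 26, LPL in phase shift cows was also called, at 1.27 (edgeR adjusted p = 0.0303). Under scaling by library totals both DGAT1 values turned positive, 0.15 and 0.18, and neither passed the test. Within phase shift cows that scaling also brought ACACA (1.74, edgeR adjusted p = 0.00135) and LPL (2.43, adjusted p = 0.00703) past it, so that 3 of 4 members were called under totals in each treatment: FASN, ACACA and LPL.

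In liver the largest difference between treatments among the members was in FASN. Control livers ran from 42.9 CPM in cow 21 through a median of 69.3 to 144.6 CPM in cow 23 (mean 83.8, SD 36.9, n = 6). Phase shift livers ran from 102.8 CPM in cow 24 through a median of 144.5 to 272.8 CPM in cow 26 (mean 172.8, SD 66.9, n = 6). The groups overlapped: 3 of 6 phase shift livers lay above every control and 4 of 6 controls below every phase shift liver, while all 6 phase shift livers exceeded the control median.

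None of the 4 members passed the adjusted threshold in liver, where edgeR called 0 of 13752 genes (0%). FASN was higher in phase shift livers by 1.06 on the log2 scale (SE 0.31, 95% interval 0.39 to 1.73), with an unadjusted edgeR p of 0.00484 and an adjusted p of 0.734. Without phase shift cow 22 the difference was 1.09. By unadjusted p it ranked 67 of 13752 genes. At an unadjusted p under 0.05, 813 genes passed, or 5.91% of those tested (3.16% in the higher direction), and FASN was the 1 member among them. DESeq2 gave the same difference an adjusted p of 0.0503 and called 16 genes (0.0711%), FASN not among them. Its adjusted p for FASN was 0.145 without phase shift cow 22 and 0.577 without phase shift cow 26, and the adjusted p over the 21 alternatives ran from 0.0250, the 1 alternative that called FASN, to 0.849. The log2 difference itself ran from 0.91 to 1.29 over the alternatives that used the raw counts. It was 0.73 by limma on the deposited regularized log values, which are on another scale.

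The other 3 members differed less between liver groups. ACACA ran from 84.1 CPM through 124.8 to 180.9 in control livers and from 105.2 through 155.8 to 243.0 in phase shift livers, and the groups overlapped, with 3 of 6 phase shift livers above every control. Its log2 difference was 0.32 (SE 0.21, 95% interval -0.13 to 0.76, edgeR adjusted p = 0.741). LPL had control values of 8.77, 10.3 and 12.6 CPM (lowest, median, highest) inside the phase shift range of 5.51, 11.9 and 16.4 CPM, and its log2 difference was 0.14 (SE 0.21, edgeR adjusted p = 0.901). DGAT1 ran from 24.8 through 28.4 to 42.3 CPM in control livers and from 15.4 through 33.5 to 39.3 CPM in phase shift livers, and its log2 difference of -0.050 (SE 0.19, edgeR adjusted p = 0.966) took either sign when single libraries were left out. The lowest DGAT1 and LPL values of any liver both belonged to phase shift cow 22, and without it the differences were 0.39 for ACACA, 0.26 for LPL and 0.066 for DGAT1.

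In the mammary gland the members' treatment differences were larger in size and far less certain, and 1 control library set most of them. LPL in control glands ran from 12.3 CPM through a median of 43.4 to 3441 CPM in cow 26, and the next highest control, cow 25, held 201.0 CPM. In phase shift glands LPL ran from 14.1 CPM in cow 26 through a median of 25.3 to 131.1 CPM in cow 21. The phase shift values all lay inside the control range.

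LPL was lower in phase shift glands by a log2 difference of -3.65 (SE 1.37, 95% interval -6.62 to -0.69, edgeR adjusted p = 0.923). Without control cow 26 the difference was -0.40 (SE 0.75, 95% interval -2.05 to 1.24), and without phase shift cow 21 as well it was -1.02 (SE 0.76). No member and no other gene passed the adjusted test in mammary (0 of 15547 genes, 0%; DESeq2 also 0, with no p for ACACA or LPL over all 12 glands), and 739 genes, or 4.75%, had an unadjusted p under 0.05, LPL being the 1 member among them.

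The enzymes of synthesis behaved alike in this respect. FASN ran from 733.5 CPM through a median of 4585 to 26100 CPM in control glands, the next highest at 5435 CPM, and from 1364 through 2686 to 7317 CPM in phase shift glands. Its log2 difference was -1.18 (SE 0.71, edgeR adjusted p = 0.923), and -0.16 (SE 0.52, 95% interval -1.30 to 0.98) without control cow 26. ACACA ran from 173.4 CPM through 329.7 to 3688 CPM in control glands, the next highest at 403.7 CPM, and from 157.4 through 208.0 to 561.2 CPM in phase shift glands. Its log2 difference of -1.48 (SE 0.75, edgeR adjusted p = 0.923) became 0.042 (SE 0.38) without control cow 26.

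DGAT1 had the narrowest mammary range. It ran from 11.2 CPM through 14.99 to 58.2 CPM in control glands, the next highest at 19.5 CPM, and from 11.6 through 15.6 to 34.0 CPM in phase shift glands, the next highest at 16.1 CPM. Its log2 difference was -0.27 (SE 0.41, edgeR adjusted p = 0.969), 0.31 without control cow 26 and 0.0064 (SE 0.17, 95% interval -0.36 to 0.37) without phase shift cow 21 as well.

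**Figure D3:**
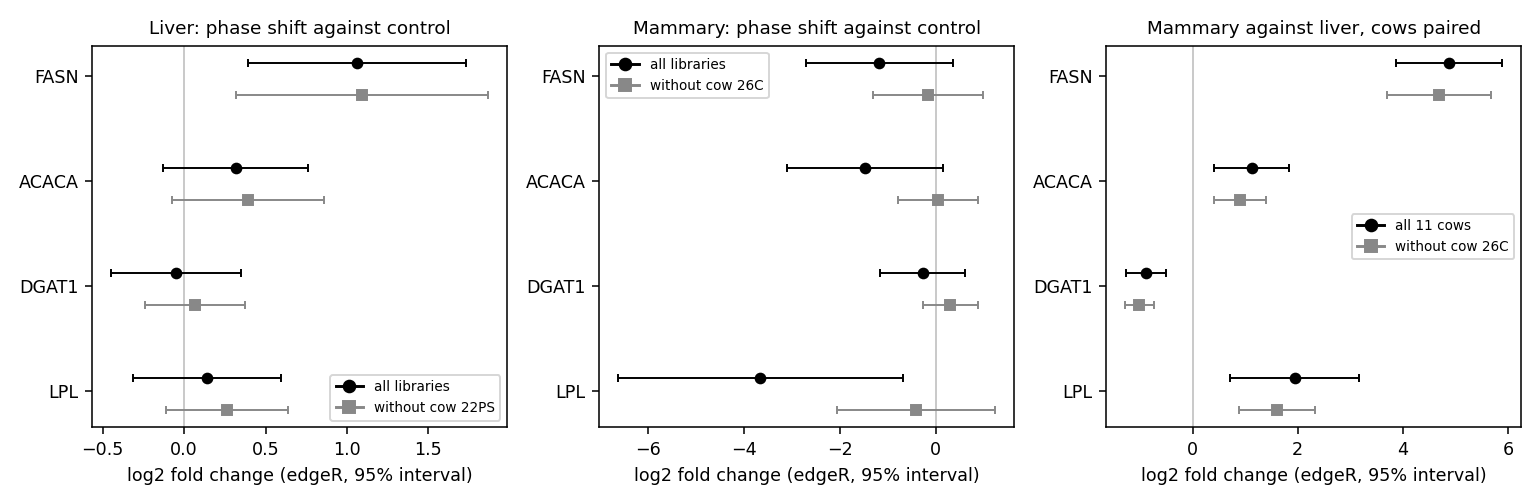
Log2 fold change of each gene with its 95% interval from edgeR, for phase shift against control in liver and in mammary and for mammary against liver with cows paired, on the TMM scale. Black points use all libraries, grey squares leave out the cow named in the legend. In mammary the LPL estimate moves from -3.65 to -0.40 without control cow 26; in the tissue comparison DGAT1 lies below 0 on this scale and at 0.17 under scaling by library totals.

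The treatment responses of the 2 tissues were compared by the interaction term of the paired fit, which asks whether the mammary-to-liver difference changed with treatment. It called 0 of 16818 genes (0%; DESeq2 also 0), and 694 genes, or 4.13%, had an unadjusted p under 0.05. FASN had a term of -1.99 on the log2 scale (SE 0.82, 95% interval -3.77 to -0.22, edgeR adjusted p = 0.933) and was the 1 member among those 694. Without control cow 26 the FASN term was -1.58 (95% interval -3.35 to 0.19, edgeR adjusted p = 0.972). The term was -1.08 for ACACA, -1.35 for LPL and -0.18 for DGAT1, none past the test. Without control cow 26 the terms were -0.62 for ACACA and -0.66 for LPL, and DGAT1 turned to 0.094.

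For FASN, ACACA and LPL single glands differed more than single livers. The SD of log2 CPM between cows of 1 treatment was 2.24 for LPL in mammary, higher than for 99.6% of genes tested there, 1.34 for FASN (97.3%), 1.26 for ACACA (96.4%) and 0.71 for DGAT1 (80.7%), where the median gene had 0.386. Without the libraries of control cow 26 and phase shift cow 21, LPL at 1.21 and FASN at 1.09 remained above 98.6% and 98.0% of genes, ACACA was at 0.64 and DGAT1 at 0.26, below the median gene at 0.295. In liver the SDs were 0.58 for FASN, 0.44 for LPL, 0.43 for ACACA and 0.41 for DGAT1, against a median of 0.285. Without phase shift cow 22 they were 0.60, 0.31, 0.40 and 0.29. The DGAT1 SDs without the libraries that stand apart were thus close, at 0.26 in mammary and 0.29 in liver, and their difference was not tested.

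Control cow 26 held the highest mammary value of each of the 4 members. Against the median of the other 10 libraries that did not stand apart, its LPL was 135-fold higher, ACACA 15.6-fold, FASN 8.69-fold and DGAT1 3.86-fold. The LPL excess exceeded that of 99.9% of the 15547 genes. Its library carried 318252 FASN counts, 2.44% of all its counts, and 41963 LPL counts, 0.321%. Phase shift cow 21 differed from the same libraries in another order, with LPL 5.15-fold, DGAT1 2.26-fold, ACACA 2.19-fold and FASN 1.16-fold higher.

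Ratios of 2 members' counts within a library need no scaling between libraries, and the gene lengths cancel when tissues are compared; no test was made of them. The ratio of FASN to ACACA counts ran from 0.510 to 1.30 over the 12 livers. In mammary it ran from 4.23 to 14.9, so the tissues did not overlap. The level of FASN alone already separated them, and how many other gene pairs do so was not counted. The ratio of DGAT1 to LPL counts ran from 2.03 to 4.11 in liver and from 0.0169 to 1.14 in mammary. LPL counts exceeded DGAT1 counts in 11 of 12 glands and in 0 of 12 livers. Where this ratio crosses 1 depends on the lengths of both genes, so it does not tell which transcript was more abundant.

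By treatment, the liver ratio of FASN to ACACA was 0.510 at the lowest, 0.567 at the median and 0.799 at the highest in control livers, and 0.672, 1.15 and 1.30 in phase shift livers. On the log2 scale the means were -0.73 (SD 0.25, n = 6) and 0.060 (SD 0.38, n = 6), the latter -0.0035 (SD 0.39, n = 5) without phase shift cow 22. Of the phase shift livers, only cow 25 lay inside the control range. In mammary the log2 means were 3.28 (SD 0.70) and 3.37 (SD 0.41), within the spread between cows, and 3.37 and 3.49 without the libraries that stand apart.

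**Figure D4:**
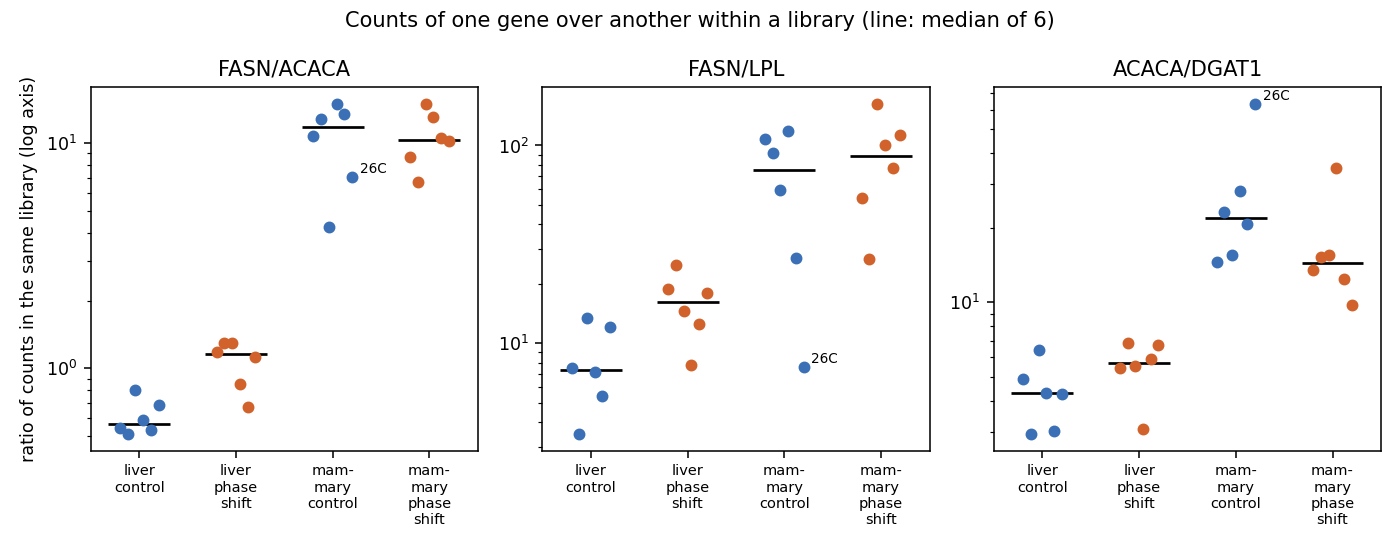
Ratio of counts of FASN to ACACA, FASN to LPL and ACACA to DGAT1 in the same library, on a log axis, by tissue and treatment, with 1 point per library and the median of 6 as a line. FASN to ACACA lies at 0.510 to 1.30 in liver and 4.23 to 14.9 in mammary; control cow 26 (26C) has the lowest mammary ratio of FASN to LPL, 7.58.

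Whether the members varied together across cows was tested over 16 relations in log2 CPM, with permutation p-values adjusted over the 16 by Benjamini-Hochberg. In liver FASN and ACACA varied together, with Pearson r = 0.790 over 12 livers (permutation p = 0.00233, adjusted 0.00621) and Spearman rho = 0.699 (permutation p = 0.0143, adjusted 0.0499). Without phase shift cow 22 r was 0.874, and without the 2 livers farthest from the median of FASN it was 0.545. Within treatments r was 0.981 in control livers (exact permutation p = 0.00556, adjusted 0.0222, n = 6) and 0.719 in phase shift livers (exact permutation p = 0.142, adjusted 0.232, n = 6).

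In mammary FASN and ACACA had r = 0.911 (permutation p = 6e-05, adjusted 0.00048, n = 12) and rho = 0.923 (permutation p = 0.00011, adjusted 0.00176). The value was 0.908 without the libraries that stand apart and 0.889 without the 2 glands farthest in FASN. It was 0.910 within control glands (exact permutation p = 0.00139, adjusted 0.00741, n = 6) and 0.890 within phase shift glands (exact permutation p = 0.00278, adjusted 0.0334, n = 6). By Pearson r, this was the 1 relation past the adjusted threshold over all libraries, without those that stand apart and within each treatment.

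LPL followed both synthesis genes in mammary. With ACACA r was 0.961 (permutation p = 6e-05, adjusted 0.00048, n = 12; rho = 0.881, permutation p = 0.00026, adjusted 0.00208), 0.822 without the libraries that stand apart and 0.884 without the 2 glands farthest in ACACA. With FASN r was 0.877 (permutation p = 0.00021, adjusted 0.00112, n = 12; rho = 0.860, permutation p = 0.00071, adjusted 0.00379), 0.790 and 0.686. Within phase shift glands alone the exact permutation test over 6 libraries gave an adjusted p of 0.139 for ACACA with LPL (r = 0.922) and 0.232 for FASN with LPL (r = 0.662). Within control glands both passed, at r = 0.970 and 0.919 (exact permutation p = 0.00139 and adjusted 0.00741 for each).

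Within a tissue, the relations of DGAT1 that passed rested on the libraries that stand apart. In liver DGAT1 with LPL had r = 0.797 (permutation p = 0.00279, adjusted 0.00638, n = 12; rho = 0.692, adjusted 0.0499), and 0.584 (adjusted permutation p = 0.166) without phase shift cow 22. In mammary DGAT1 had r = 0.722 with FASN, 0.868 with ACACA and 0.883 with LPL over 12 glands, and 0.538, 0.430 and 0.550 without control cow 26 and phase shift cow 21, none then past the adjusted threshold. By Spearman rho these 3 had adjusted permutation p-values of 0.0848, 0.0578 and 0.0578 over all 12. In all, 8 of 16 relations passed by Pearson r and 5 by Spearman rho, and 4 and 4 without the libraries that stand apart. Of the 5, liver FASN with ACACA and liver DGAT1 with LPL had adjusted permutation p-values of 0.0499. Another set of random permutations could put these above 0.05.

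No relation was detected between a cow's liver level and the level of the same gene in the cow's gland. Over the 11 cows Pearson r was -0.215 for FASN, 0.072 for ACACA, 0.394 for DGAT1 and -0.0016 for LPL, with adjusted permutation p-values of 0.271 and above. Without the libraries that stand apart DGAT1 was at 0.650 (exact permutation p = 0.0613, adjusted 0.166, n = 9), and the other 3 had adjusted exact permutation p-values of 0.487 to 0.625. With 11 cows a weak relation would not be detectable.

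**Figure D5:**
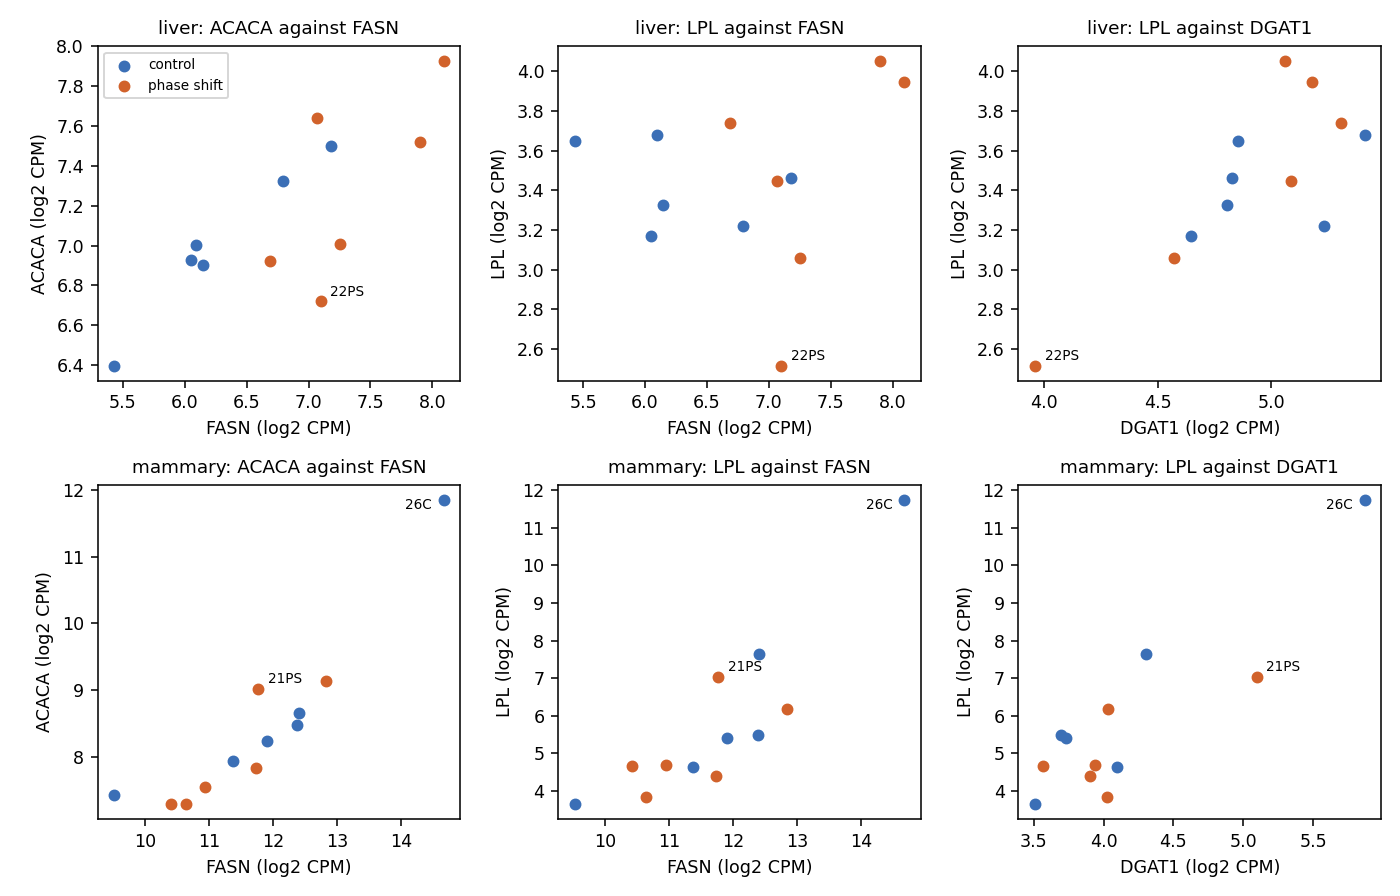
Log2 CPM of ACACA against FASN, LPL against FASN and LPL against DGAT1, in liver (top) and mammary (bottom), with 1 point per library coloured by treatment. In mammary ACACA and LPL climb with FASN (r = 0.911 and 0.877) and control cow 26 (26C) lies at the top right of each panel; in liver phase shift cow 22 (22PS) lies at the lower left of the DGAT1 panel.

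Against the whole mammary table, ACACA ranked 23 of 15546 genes by its correlation with FASN over the 12 glands, and LPL ranked 64. Over the 10 glands that did not stand apart the ranks were 80 and 596. By its correlation with ACACA, LPL ranked 12 over the 12 glands and 729 over those 10. The gene most like FASN was ENSBTAG00000019700, at r = 0.982 over 12 glands and 0.976 over those 10, where it again ranked highest. ACACA ranked 4 among the genes most like LPL, of which the closest was ENSBTAG00000015046, at r = 0.968 over 12 glands. Over the 10 glands ACACA ranked 142 for LPL and another gene ranked highest, so this order rested on the libraries that stand apart. In liver ACACA ranked 82 of 13751 genes by correlation with FASN, and LPL 4253, or 53 and 2852 without phase shift cow 22. These ranks describe the same 12 libraries in each tissue, and the deposited tables do not pair the 2 identifiers with names.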

How the data were processed

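Transcripts were counted in biopsies of both tissues, and cows are the replicates. Ribosomal RNA was removed and libraries were sequenced in a paired-end run, per the labels' protocols. The authors used, per the submitters' processing notes, Trimmomatic 0.36, STAR 2.5.2b, the cattle build ARS-UCD1.2, featureCounts from Subread 1.5.2 and DESeq2. The sources used here do not give the annotation release or the strand setting, and reads shared with overlapping or antisense genes cannot be set apart.

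The authors deposited, for each tissue, raw read counts per Ensembl gene ID, which were used for every main test. The deposited normalized values are a signal (each library's raw counts over its own size factor) and were not tested. The deposited regularized log values, on the log2 scale, served for an alternative.

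Samples were grouped by the tissue, treatment and cow in their titles. Treatments were compared within a tissue by edgeR's quasi-likelihood F test (edgeR 4.0.16, R 4.3.3; robust dispersion, TMM scaling, filterByExpr at min.count 10 and min.total.count 15) with Benjamini-Hochberg adjustment over all genes at 0.05. Mammary was compared with liver, and the interaction tested, in 1 edgeR fit of the 22 libraries of the 11 cows with both tissues, with cow as a fixed block. The pairing comes from the labels, which give the same animal in both tissues. Deviations of a cow's libraries from their group means correlated at 0.00028 to 0.198 across tissues. A liver library correlated best with the gland of its own cow in 6 of 11 cows. Levels are CPM, or log2 CPM with a prior count of 2. Relations used two-sided tests with 100000 permutations, or all permutations below 10 cows. Alternatives were DESeq2 1.42.0, limma-voom and limma on regularized log values (limma 3.58.1), other scalings, no filter, other blocks and leaving out cows. Scaling by library totals, and DESeq2 without the libraries that stand apart or without phase shift cow 26, were chosen after seeing the data. Which libraries stand apart was itself read from these data. The edgeR fits were also run on simulated counts, which held no cow effects and no outlying libraries. The outcome is not given here.

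The 5 members, the comparisons and the lists were chosen with earlier results of these data known. All members are named in every comparison. Other pathway genes and cell type markers, listed by symbol, were to be used only where a table pairs symbols with the Ensembl IDs. The RefSeq gene table used here (37063 genes of assembly ARS-UCD2.0) gives no gene an Ensembl ID. With 0 IDs matched, these lists were not analysed here and no sequence is shown. The member symbols come with the member list. The genes most like FASN and most like LPL in mammary are given by ID only.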

Additional observations from a re-analysis of the deposited data

Results flagged for a closer look

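Of 16 sets of 6 libraries (each of the 4 genes in each group), 3 held a library whose gap to the next exceeded Dixon's 95% limit on the log2 scale, where chance alone gives about 1 in 20. ACACA in the mammary library of control cow 26 was at 3688 CPM, and the next control gland was at 403.7. DGAT1 in the same library was at 58.2 CPM, and the next was at 19.5. In the gland of phase shift cow 21, DGAT1 was at 34.0 CPM, and the next phase shift gland was at 16.1. These are the 2 mammary libraries that stood apart over all genes, and the mammary differences without them are given above.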

How the results depend on the processing

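In liver, edgeR called 0 genes and DESeq2 called 16; DESeq2 called 30 without phase shift cow 22 and 6 without phase shift cow 26, and leaving out single libraries gave edgeR 0 to 1 calls, the 1 without control cow 26, with 0 members in each case. In mammary, where edgeR called 0, DESeq2 called 19 genes without control cow 26 and phase shift cow 21, no member among them, and leaving out single libraries gave 0. With all mammary libraries DESeq2 gave no p for ACACA and LPL. Without control cow 26 and phase shift cow 21 its unadjusted p was 0.570 for ACACA and 0.174 for LPL. The cause of these differences was not tested.

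Control and phase shift cows share numbers, and cows were assigned by blocking on lactation history, but no label ties a number to a block. Same-numbered cows' deviations correlated at -0.085 to 0.101 in liver and -0.384 to 0.165 in mammary (5 pairs each, 1 of them over 0.1 in each tissue), and each cow correlated best with its own number in 3 of 5 and 0 of 5 pairs. With the shared number as a replicate block, edgeR called 2 liver genes, of which 1 member, FASN (0.94, adjusted p = 0.0250), and 0 mammary genes; LPL in mammary was then at -0.048.

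The tissue calls held for FASN, ACACA and LPL in 19 of 19 alternatives and for DGAT1 in 18. Leaving out single cows gave 11548 to 12260 genes and 4 members. Within phase shift cows the 2 members called became 1 with no replicate block over 24 libraries, and 2 to 3 when single cows were left out; within control cows 4 became 3. Library totals gave 3 members called in each treatment, without DGAT1. That scaling called 13701 of 16818 genes in control cows and 13901 in phase shift cows. Scaling by library totals turned DGAT1 to 0.17 over all cows, 0.15 in control cows, 0.18 in phase shift cows and 0.029 in the interaction. DGAT1 also changed sign in the liver treatment comparison with the replicate block (0.048) and by DESeq2 without phase shift cow 22 (0.067), and in mammary without control cow 26 and phase shift cow 21 (0.0064 by edgeR, 0.0087 by DESeq2). Leaving out single cows moved DGAT1 from -0.13 to 0.066 in liver, from -0.56 to 0.31 in mammary and from -0.38 to 0.094 in the interaction, and ACACA in mammary from -1.74 to 0.042. Of 16 relations, 8 passed with all libraries and 4 without those that stand apart; between tissues r became -0.212 for ACACA, 0.227 for LPL and 0.650 for DGAT1 (0.394 with all).

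The number of cows and their spread limit the mammary comparison, which had 5 control and 6 phase shift glands without control cow 26. The 95% intervals of log2 differences were then -1.30 to 0.98 for FASN and -2.05 to 1.24 for LPL. Both include 0, and differences of either sign within them remain compatible with the data.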
